A study of Homo sapiens with 6 samples.

Results

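The genes described here are 41 genes that cells use to pass from G2 into mitosis and through cell division. The rule that picks them uses gene names and functions and no measured value, although earlier results of these data were known when it was written. They are cyclins and their kinase, CDC25 phosphatases, mitotic kinases, the chromosomal passenger complex, the spindle checkpoint, centromere and kinetochore proteins, spindle motors, and proteins of cytokinesis and chromosome separation. All 41 symbols were found among the 24789 rows with values in the deposited table. RNA was sequenced from 6 libraries of LX-2, a line of human hepatic stellate cells immortalised with a viral large T antigen. In 3 libraries the cells had received scrambled siRNA (genotype label WT), and in the other 3 an siRNA against AEBP1 (genotype label AEBP1 knockdown). AEBP1 encodes a secreted carboxypeptidase-like protein of the extracellular matrix. Both groups grew in MEM with fetal bovine serum, penicillin and streptomycin, received 50 nM siRNA with a Lipofectamine reagent, and were cultured for 48 hours. There was no untransfected group, all libraries come from 1 line, and the labels do not say whether the libraries of a group came from separate transfections. The p-values therefore measure the spread between these libraries, which may be technical.

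Entry into mitosis is driven by CDK1 bound to cyclin A or cyclin B. CDC25 phosphatases remove the inhibitory phosphates from CDK1, and Polo-like and Aurora kinases reinforce its activation. Once the chromosomes are condensed, the kinetochores attach them to the spindle while the spindle checkpoint holds back the anaphase-promoting complex. With CDC20 bound, that complex then marks securin and cyclin B for destruction, the sister chromatids separate, and the central spindle guides the cleavage furrow. Most of these genes are transcribed in a wave late in the cell cycle. The wave depends on B-MYB, FOXM1 and the MuvB complex, and it is repressed in resting cells by MuvB with pocket proteins. In injured liver, activated stellate cells divide and lay down scar matrix. A large T antigen binds p53 and the pocket proteins, which limits LX-2 as a model of how stellate cells leave the cycle.

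Promoters of this class of gene are known for CCAAT boxes, bound by NF-Y, placed before a cell cycle homology region (CHR), bound by MuvB. RefSeq promoter windows on GRCh38.p14, reaching from 250 bases before to 50 bases after the annotated start, were at hand for 35 of the 41 genes. AURKA, BIRC5, BUB3, TPX2, TTK and UBE2C had no window in that table. The last 100 bases before the start are shown, 5′ to 3′ on the gene's own strand, for 7 genes whose levels are taken up below. They are CDCA8, KIF20A and PLK1, whose levels differed between libraries of 1 label, the cyclin B genes and CDK1, which form the entry kinase, and CCNA2, whose level was nearly even. Capitals mark CCAAT or its complement ATTGG, and the CHR letters TTTGAA or TTTAAA. In CDCA8 a TTTGAA and an ATTGG share 1 base. CDK1 has a second annotated start, and the 100 bases before that one (chr10:60778231-60778330) hold 0 matches of either motif, so the start with matches is shown.
CDCA8, chr1:37692416-37692515, plus strand: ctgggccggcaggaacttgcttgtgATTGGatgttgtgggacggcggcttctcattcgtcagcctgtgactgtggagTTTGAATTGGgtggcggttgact
KIF20A, chr5:138179012-138179111, plus strand: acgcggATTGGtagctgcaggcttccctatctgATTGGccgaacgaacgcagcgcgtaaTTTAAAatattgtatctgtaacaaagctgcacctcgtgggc
PLK1, chr16:23678789-23678888, plus strand: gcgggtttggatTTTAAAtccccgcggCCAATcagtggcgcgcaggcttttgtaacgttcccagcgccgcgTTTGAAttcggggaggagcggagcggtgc
CCNB1, chr5:69167050-69167149, plus strand: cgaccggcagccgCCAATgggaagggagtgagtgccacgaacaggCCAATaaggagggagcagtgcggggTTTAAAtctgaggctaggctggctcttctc
CCNB2, chr15:59105046-59105145, plus strand: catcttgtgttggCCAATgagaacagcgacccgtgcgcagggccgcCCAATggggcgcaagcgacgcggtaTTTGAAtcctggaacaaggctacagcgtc
CDK1, chr10:60778378-60778477, plus strand: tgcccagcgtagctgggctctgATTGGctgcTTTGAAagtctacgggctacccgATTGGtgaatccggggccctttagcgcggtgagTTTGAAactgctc
CCNA2, chr4:121823884-121823983, minus strand: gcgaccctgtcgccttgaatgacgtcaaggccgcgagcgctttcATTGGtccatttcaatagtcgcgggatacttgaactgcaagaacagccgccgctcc

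In CCNB1 the CHR letters began 30 bases before the start, with CCAAT boxes at 55 and 87 bases. CCNB2 had nearly the same layout, with TTTGAA at 29 bases and CCAAT at 54 and 87 bases. PLK1 had TTTGAA at 29 bases, KIF20A had TTTAAA at 41 bases, and CDCA8 had TTTGAA at 23 bases. Of the 35 genes with a window, 29 (82.9%) held CCAAT or ATTGG somewhere in its 300 bases, against 39.7% of all 27305 genes in the table. TTTGAA, its complement TTCAAA, or TTTAAA, which is its own complement, was found for 31 (88.6%), against 27.9% of all genes. Both motifs were present for 24 (68.6%), against 11.2% of all genes, and 2 or more CCAAT matches for 20 (57.1%), against 12.9%. A gene with several windows counts once if any of them holds the motif. Per window, CCAAT was in 34 of 45 (75.6%) against 34.6% of all windows, and the CHR letters in 35 (77.8%) against 24.0%. These are matches of letters, read with overlaps kept, and the window of CCNA2 did not hold the CHR letters searched.

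The total count per library ran from 34433510 to 49432960. AEBP1 itself stood at 53.6, 48.7 and 25.1 counts per 1000000 (CPM, scaled by edgeR's trimmed mean of M values) in the libraries labelled scrambled 1, 2 and 3, and at 29.7, 27.7 and 48.3 CPM in those labelled AEBP1 siRNA 1, 2 and 3. The library labelled scrambled 3 was thus the lowest of the 6 and the library labelled AEBP1 siRNA 3 lay close to scrambled 2, both against their labels. The sources used here do not say whether the labels of replicate 3 were exchanged. If they were, every fold change between labelled groups below would compare mixed groups, so those directions hold only for the libraries as labelled. The log2 fold change of AEBP1 between labelled groups was -0.27 (SE 0.31, edgeR quasi-likelihood test, adjusted p = 0.991). A second feature of the series is that AEBP1 siRNA 1 held the lowest of the 6 values for 36.2% and the highest for 38.2% of the 10387 tested genes whose mean level reached 10 CPM. Stellate cell markers were present, with 8 of 10 genes tested, COL1A1 at 1413 to 1617 CPM and LRAT listed at 0. COL1A1 was the highest of the tested stellate markers. The 10 stellate markers summed to 3597 to 4011 CPM in the scrambled and 3568 to 4063 CPM in the AEBP1 siRNA libraries. Markers of hepatocytes, leukocytes and endothelium were low in both groups. The 10 hepatocyte markers summed to 5.00 to 9.17 CPM in the scrambled and 5.78 to 7.69 CPM in the AEBP1 siRNA libraries, with APOB, TTR and FGB at 0. The 8 leukocyte markers summed to 19.3 to 24.1 and 22.1 to 26.1 CPM with MS4A1 at 0, and the 8 endothelial markers to 1.58 to 2.53 and 1.66 to 2.05 CPM with CLEC4G and LYVE1 at 0. The 8 epithelial markers summed to 219 to 240 and 224 to 297 CPM. KRT18, a keratin of simple epithelia, led them at 150 to 220 CPM, highest in AEBP1 siRNA 1, with a mean of 95.5 FPKM, which is above the median level of the genes described here.

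All 41 genes were well expressed. No gene had fewer than 403 counts in any library, and all 41 passed the filter on low counts. On the deposited FPKM scale (fragments scaled by gene length and library size, so that levels of different genes can be compared), the mean over 6 libraries ran from 6.74 to 383, with a median of 39.7. UBE2C, the ubiquitin-conjugating enzyme of the anaphase-promoting complex, had the highest level at 383 FPKM. PTTG1, which encodes securin, followed at 158 FPKM, although reads from near-identical copies of PTTG1 could have been split or added by the counting. NDC80 at 108 and TOP2A at 106 FPKM were the other members above 100. CENPA, the centromeric histone H3 variant, was lowest at 6.74 FPKM, followed by the kinetochore motor CENPE at 8.84 FPKM. Counts and FPKM differed in SPC24, a small kinetochore subunit, whose FPKM was 10.3, 8.65 and 10.3 in the scrambled and 12.1, 15.8 and 9.21 in the AEBP1 siRNA libraries. Its CPM was 21.5 in AEBP1 siRNA 2, the library with the highest FPKM, and 19.4 to 26.3 elsewhere. The gene length implied by count and FPKM was 1365 bases in that library and 2068 to 2272 bases in the others. No other member had an implied length that varied as much between libraries.

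**Figure D1:**
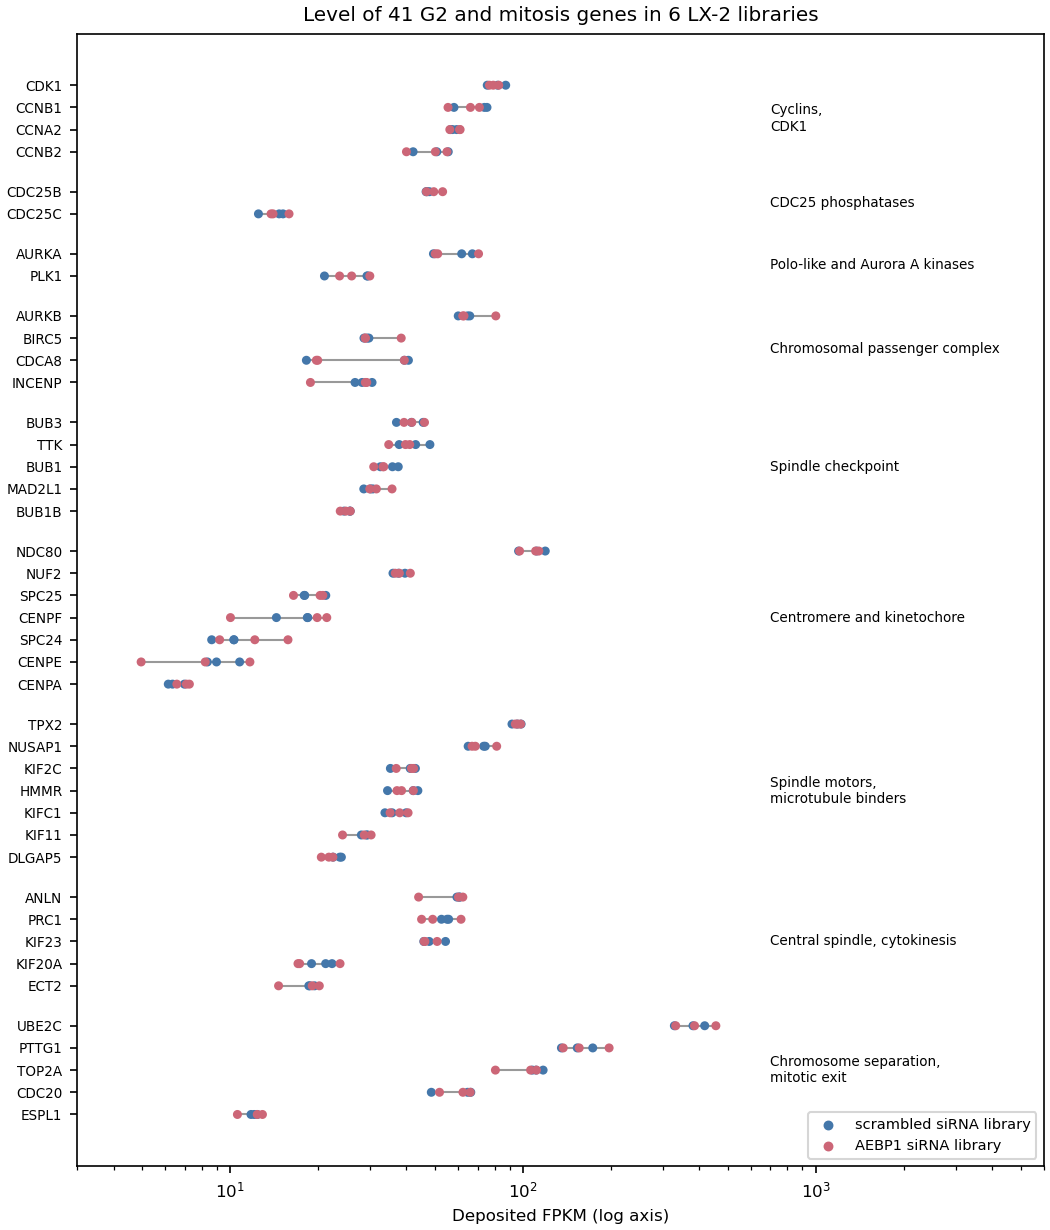
Deposited FPKM of each of the 41 genes (log axis) in the 6 libraries, grouped by role and ordered by mean level. Each point is 1 library, coloured by its label, and the line joins the lowest and highest library. UBE2C is highest at a mean of 383 FPKM and CENPA lowest at 6.74 FPKM, and the points of both labels interleave.

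None of the 41 genes was called between the labelled groups at an adjusted p under 0.05 in edgeR's quasi-likelihood test. Over all 16250 genes tested, 1 gene was called (0.00615%). No member had an unadjusted p under 0.05 either, where 1.33% of all genes did. The smallest unadjusted p was 0.181, for DLGAP5, and the adjusted p of every member was at least 0.991. The labelled groups overlapped in CPM for every member, while they did not overlap for 5.93% of all genes. The log2 fold change was below 0 for 28 members (68.3%), where 50.6% of all genes were below 0, and the median over members was -0.015 against -0.0023 over all genes. Upper quartile scaling put 51.2% of members below 0, but it moved all genes alike, with a median of 0.014 over all genes and -3.0e-05 over members. Signs of members close to 0 therefore depend on where the scaling sets 0. A 95% confidence interval was drawn around each fold change, in which 0.58 on the log2 scale corresponds to a change by 1.5 times. For 38 members the whole interval lay within that distance of 0 on either side. The exceptions were CDCA8, CENPE and CENPF. In bulk RNA, fewer cells in G2 or mitosis and less of these RNAs per cell cannot be told apart.

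**Figure D2:**
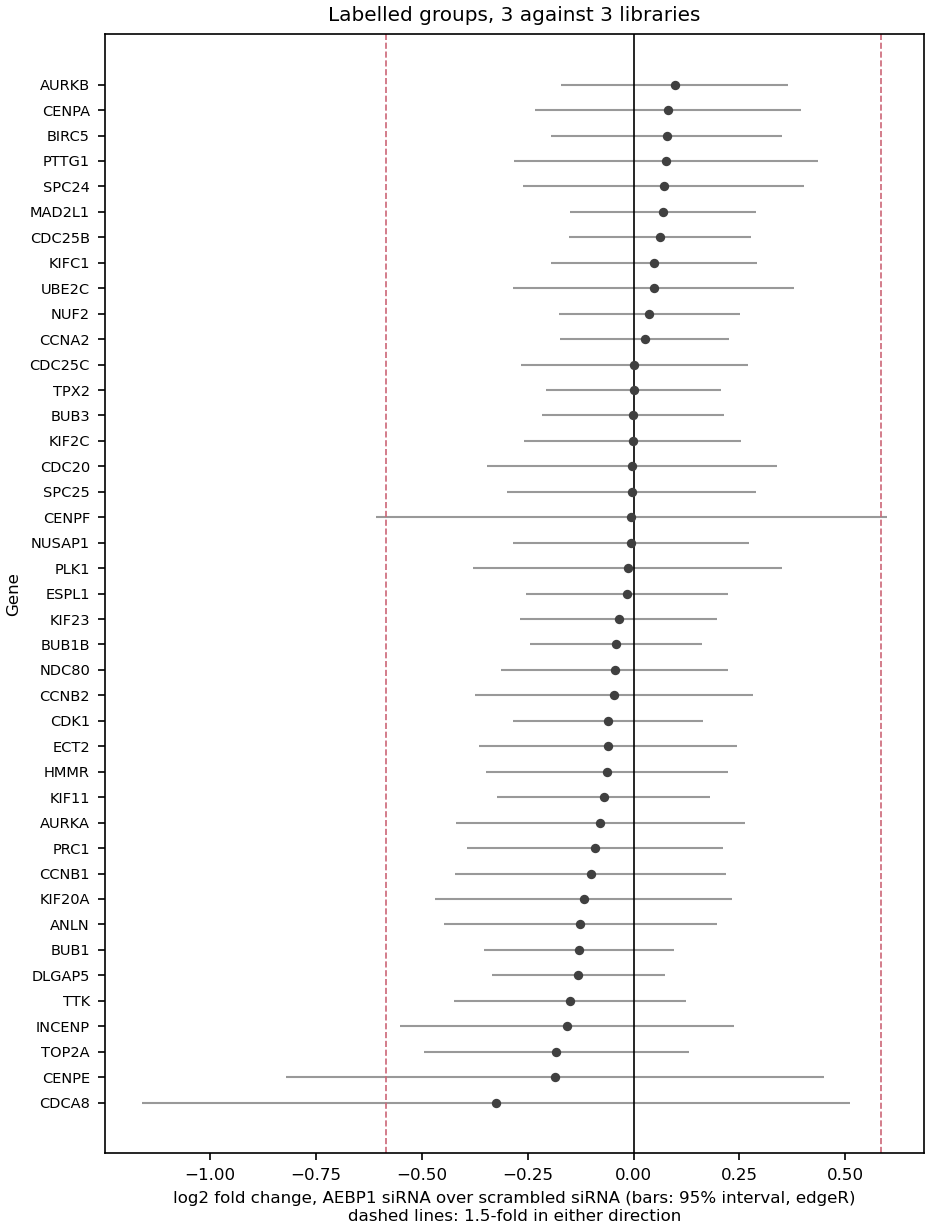
Log2 fold change of AEBP1 siRNA over scrambled siRNA libraries, as labelled, for the 41 genes from the edgeR fit on 3 against 3 libraries. Points are estimates and bars 95% confidence intervals, with a vertical line at 0. Every interval crosses 0, and the widest ones belong to CDCA8 (estimate -0.33) and CENPE (estimate -0.19).

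Of cyclins A and B and their kinase, 3 of 4 genes had a lower estimate, with a median of -0.053. CCNB1, which encodes the main mitotic cyclin, stood at 174, 175 and 137 CPM in the scrambled libraries and at 155, 130 and 169 CPM in the AEBP1 siRNA libraries. Scrambled 3 and AEBP1 siRNA 2 were the low libraries, 1 in each group, and the fold change was -0.10 on the log2 scale (SE 0.14). CDK1, the kinase that cyclin B activates, stood at 187, 175 and 159 CPM against 172, 164 and 163 CPM. Its groups overlapped, and the fold change was -0.060 (SE 0.098). CCNA2, which encodes the cyclin that acts from S phase into early mitosis, was picked out after its values were seen because it hardly varied. It stood at 182, 178 and 187 CPM against 190, 188 and 179 CPM, with its highest library 1.06 times its lowest and a confidence interval of the fold change from -0.17 to 0.23. CCNB2 ranged from 74.2 to 103 CPM, lowest in AEBP1 siRNA 2 and next lowest in scrambled 3, as CCNB1 was.

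Both CDC25 phosphatases had an estimate above 0. CDC25B, which acts early in mitotic entry, stood at 164, 165 and 159 CPM in the scrambled and 184, 164 and 163 CPM in the AEBP1 siRNA libraries. AEBP1 siRNA 1 was the high library, the remaining 5 lay within 159 to 165 CPM, and the fold change was 0.063 (SE 0.093). CDC25C, which completes the activation of CDK1, ranged from 27.6 to 33.3 CPM with a fold change of 0.0018.

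AURKA, the Aurora kinase of centrosomes and spindle poles, stood at 130, 134 and 102 CPM in the scrambled libraries and 110, 101 and 136 CPM in the AEBP1 siRNA libraries. Each group thus held libraries at both ends of the range, and the fold change was -0.079 (SE 0.15). PLK1, the Polo-like kinase that acts from mitotic entry to cytokinesis, was named after its values were seen. It stood at 74.1, 72.7 and 52.4 CPM against 64.4, 57.6 and 75.4 CPM. Its 3 high libraries were scrambled 1, scrambled 2 and AEBP1 siRNA 3, as for AURKA, and the fold change was -0.014 (SE 0.16).

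The chromosomal passenger complex joins the kinase Aurora B to INCENP, survivin and borealin, and corrects wrong attachments of chromosomes. Its genes differed in how they varied between libraries. CDCA8, which encodes borealin, stood at 107, 111 and 49.1 CPM in the scrambled libraries and 52.5, 53.0 and 108 CPM in the AEBP1 siRNA libraries. Its values fell at 2 separate levels, with scrambled 3 at the low level and AEBP1 siRNA 3 at the high one. The deposited FPKM showed the same, with 39.4, 40.6 and 18.2 against 19.7, 19.9 and 39.4. The fold change between labelled groups was -0.33 (SE 0.36), with a confidence interval from -1.16 to 0.51. AURKB, which encodes the kinase itself, stood at 82.1, 80.4 and 75.0 CPM against 98.2, 76.0 and 79.9 CPM, with AEBP1 siRNA 1 the high library and a fold change of 0.097 (SE 0.12). BIRC5, which encodes survivin, was likewise highest in AEBP1 siRNA 1, at 99.7 CPM, and lay between 76.3 and 81.9 CPM elsewhere. INCENP, the scaffold, was lowest in that library, at 82.6 CPM, and lay between 119 and 135 CPM elsewhere. The 2-level pattern of CDCA8 was therefore not shared by the partners of borealin.

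CDCA8 varied more between libraries than most genes. Its highest CPM was 2.25 times its lowest. Among the 10387 tested genes whose mean reached 10 CPM, 281 (2.71%) had a larger ratio. Only 4 members (9.76%) had a ratio of 1.5 or more, namely CDCA8, CENPE at 2.42, CENPF at 2.18 and INCENP at 1.64, against 24.6% of those 10387 genes. The median ratio was 1.29 over members and 1.33 over the 10387 genes.

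**Figure D3:**
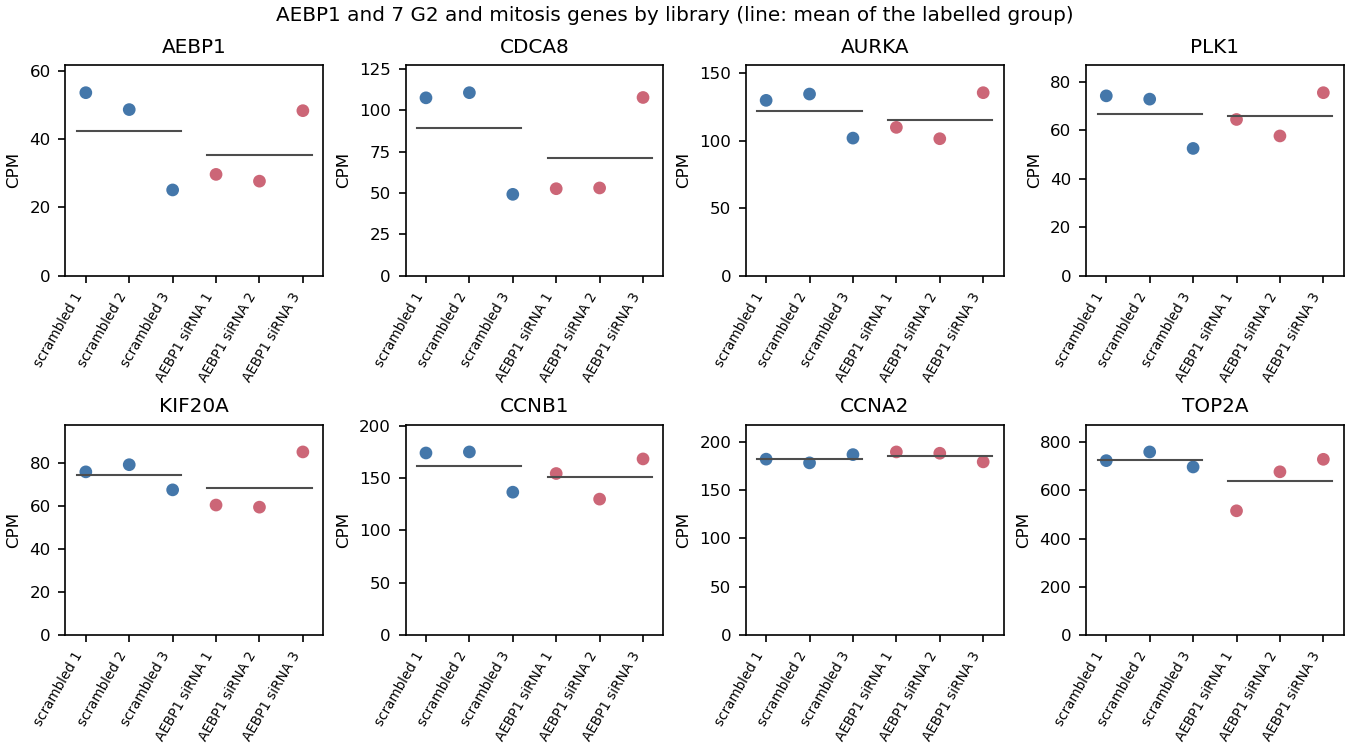
CPM of AEBP1 and 7 of the genes in each library, on axes that start at 0, with a line at the mean of each labelled group of 3. CDCA8 is near 50 CPM in scrambled 3, AEBP1 siRNA 1 and AEBP1 siRNA 2 and near 108 CPM in the remaining libraries, CCNA2 is even across all 6, and TOP2A is low in AEBP1 siRNA 1.

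The spindle checkpoint stops anaphase until every kinetochore is attached, and 4 of its 5 genes had an estimate below 0, that of BUB3 by a margin that upper quartile scaling, which raised all genes alike, turned. TTK, the kinase at the head of the checkpoint, stood at 154, 164 and 133 CPM in the scrambled libraries and 121, 139 and 147 CPM in the AEBP1 siRNA libraries. Its fold change was -0.15 (SE 0.12), with AEBP1 siRNA 1 lowest. BUB1, a checkpoint kinase that also protects the cohesion of centromeres, stood at 143, 148 and 129 CPM against 121, 129 and 134 CPM. Its groups overlapped only through scrambled 3, and the fold change was -0.13 (SE 0.098). BUB3, which carries BUB1 and BUBR1 to the kinetochore, stood at 187, 182 and 170 CPM against 173, 176 and 190 CPM. These values were close to even, with a fold change of -0.0010 (SE 0.094). BUB1B, which encodes BUBR1, ranged from 98.2 to 109 CPM. MAD2L1, whose product binds CDC20, was highest in AEBP1 siRNA 1, at 185 CPM, and lay between 158 and 166 CPM elsewhere.

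Among the 7 centromere and kinetochore genes, 4 estimates were below 0, with a median of -0.0042. Of these, CENPF and SPC25 lay so close to 0 that the same shift of all genes turned their sign. NDC80, which encodes the subunit that grips the microtubule, stood at 289, 267 and 232 CPM in the scrambled libraries and 267, 230 and 267 CPM in the AEBP1 siRNA libraries. As for CCNB1, scrambled 3 and AEBP1 siRNA 2 were low, and the fold change was -0.044 (SE 0.12). Of the partners of NDC80 in its complex, NUF2 lay between 79.1 and 89.9 CPM, SPC25 between 25.4 and 32.6 CPM and SPC24 between 19.4 and 26.3 CPM. CENPE, the motor that carries chromosomes to the spindle equator, stood at 84.8, 101 and 78.1 CPM against 45.6, 76.0 and 110 CPM. Its lowest and its highest library were both AEBP1 siRNA libraries, and the fold change was -0.19 (SE 0.28). CENPF, a large protein of the outer kinetochore, had the same 2 libraries at its ends, with 115 CPM in AEBP1 siRNA 1 and 251 CPM in AEBP1 siRNA 3. CENPA ranged from 9.79 to 11.6 CPM.

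TPX2, which activates Aurora A on spindle microtubules, had the highest level among the 7 motors and microtubule binders. It stood at 391, 377 and 361 CPM in the scrambled libraries and 366, 373 and 392 CPM in the AEBP1 siRNA libraries, and its fold change was 0.00046 (SE 0.090). DLGAP5, a microtubule-binding protein of the spindle, stood at 80.1, 78.9 and 75.2 CPM against 67.6, 71.0 and 75.3 CPM. The groups overlapped because AEBP1 siRNA 3 lay just above scrambled 3, and the fold change was -0.13 (SE 0.089), with an interval from -0.33 to 0.074. The motor genes KIF11, KIF2C and KIFC1 ranged from 131 to 163, 113 to 139 and 98.0 to 118 CPM. NUSAP1, a microtubule bundler, ranged from 160 to 204 CPM, and HMMR, a spindle pole protein, from 117 to 151 CPM.

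All 5 genes of the central spindle and of cytokinesis had an estimate below 0, with a median of -0.092, and none passed the test. ANLN, which encodes the furrow scaffold anillin, stood at 317, 325 and 322 CPM in the scrambled libraries and 232, 327 and 324 CPM in the AEBP1 siRNA libraries. AEBP1 siRNA 1 alone was low, the fold change was -0.13 (SE 0.14), and without that library it was 0.019. ECT2, which activates RHOA at the furrow, was also low in that library alone, at 65.8 CPM against 83.6 to 91.1 CPM elsewhere. KIF20A, a motor of the central spindle, was named after its values were seen. It stood at 75.7, 79.1 and 67.4 CPM against 60.3, 59.3 and 85.0 CPM, with the highest library and both lowest libraries in the AEBP1 siRNA group and a fold change of -0.12 (SE 0.15). That value was -0.31 without AEBP1 siRNA 3, -0.18 without scrambled 3, -0.068 without scrambled 2, -0.037 without AEBP1 siRNA 1 and -0.027 without AEBP1 siRNA 2. PRC1, which bundles the microtubules of the central spindle, had the same order at its ends, from 175 CPM in AEBP1 siRNA 2 to 237 CPM in AEBP1 siRNA 3. KIF23, another motor of the central spindle, ranged from 179 to 208 CPM.

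TOP2A, which untangles sister chromatids, stood at 724, 760 and 698 CPM in the scrambled libraries and 515, 678 and 729 CPM in the AEBP1 siRNA libraries. The low library was AEBP1 siRNA 1, and the fold change was -0.18 (SE 0.14), with an interval from -0.50 to 0.13. Without that library it was -0.048, and without AEBP1 siRNA 3 it was -0.29. UBE2C stood at 400, 361 and 313 CPM against 427, 311 and 371 CPM. Here AEBP1 siRNA 1 was the highest library and scrambled 3 and AEBP1 siRNA 2 were the lowest, and the fold change was 0.048 (SE 0.14). PTTG1 had the same order at its ends, from 116 CPM in AEBP1 siRNA 2 to 170 CPM in AEBP1 siRNA 1. CDC20, the activator of the anaphase-promoting complex, was low in scrambled 3 and AEBP1 siRNA 2, at 92.7 and 97.3 CPM, and lay between 120 and 126 CPM elsewhere. ESPL1, which encodes separase, the protease that cuts cohesin, ranged from 77.9 to 96.6 CPM.

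Since neither label was high or low throughout, each gene was set against its own mean log2 CPM over the 6 libraries. In scrambled 1 and 2, 33 and 30 of the 41 genes lay above their mean, and in AEBP1 siRNA 3 it was 30. In scrambled 3 and in AEBP1 siRNA 2 it was 9 each, and in AEBP1 siRNA 1 it was 19. Over the 10387 tested genes whose mean reached 10 CPM, the share above the mean lay between 48.9% and 54.6% in every library. The median deviation of the members was 0.092, 0.053 and -0.065 in the scrambled libraries and -0.025, -0.069 and 0.062 in the AEBP1 siRNA libraries, on the log2 scale. The summed CPM of the 41 genes was 6480, 6488 and 5839 in the scrambled and 5800, 5861 and 6499 in the AEBP1 siRNA libraries. The range of these sums was nearly the same within either label. The 3 libraries with the lower sums were also those with the lower AEBP1 values given above, which is a description of 6 libraries and was not tested. By gene, AEBP1 siRNA 1 was not low throughout, since it held the lowest value for 12 members and the highest for 11. A sum weighs abundant genes most, and TOP2A stood at 515 CPM there against 678 to 760 CPM elsewhere.

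**Figure D4:**
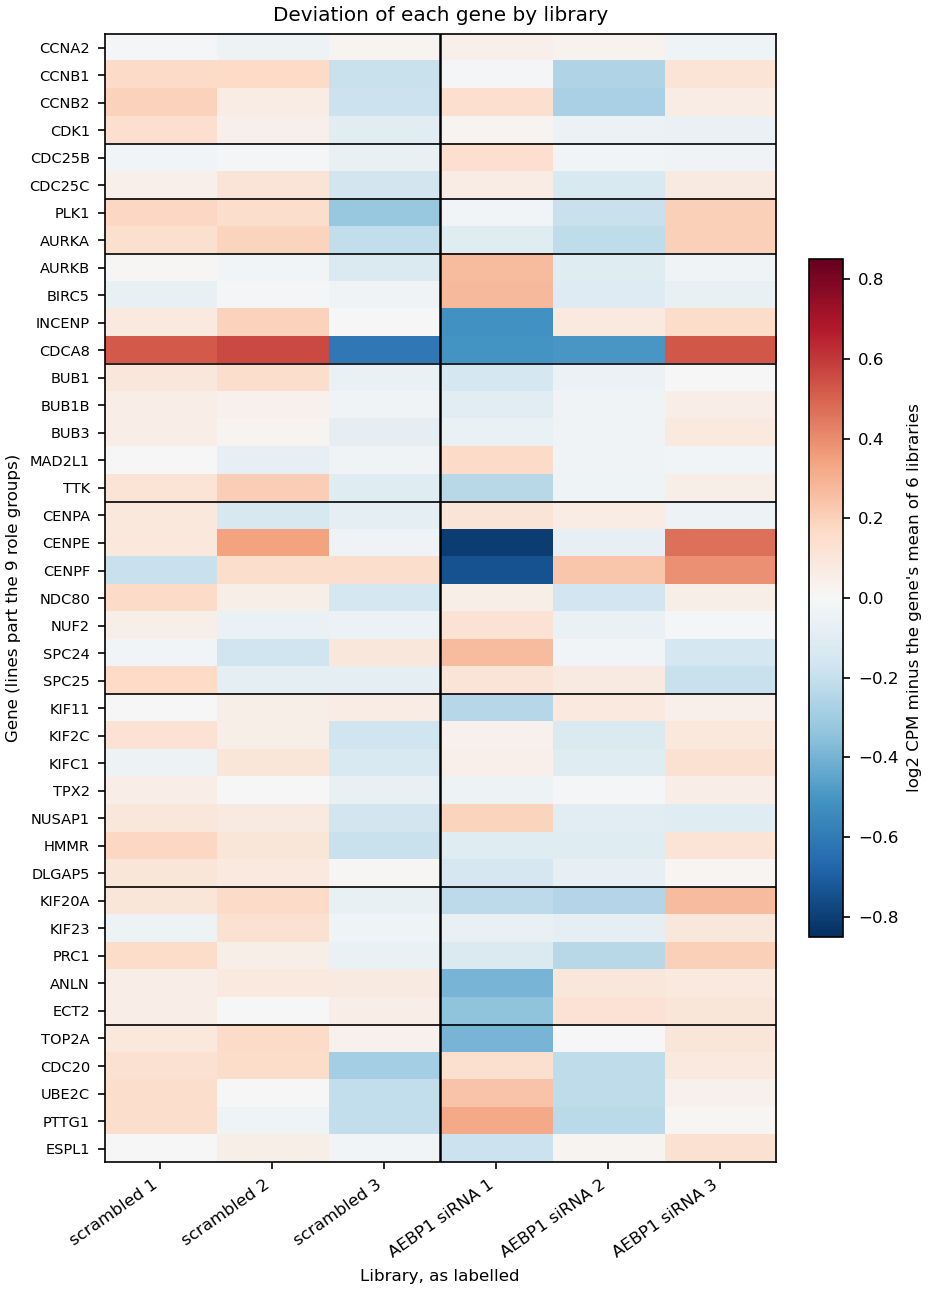
Deviation of each of the 41 genes from its own mean log2 CPM over the 6 libraries, with genes in rows by role and libraries in columns, red above and blue below the mean. Scrambled 3 and AEBP1 siRNA 2 are below the mean for 32 genes each, scrambled 1 is above it for 33, and AEBP1 siRNA 1 holds both the lowest value for 12 genes and the highest for 11.

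AEBP1 siRNA 1 split the genes by length. Length was taken as the length in bases implied by count and FPKM. In that library Spearman's rho between length and deviation was -0.74 across the 41 genes and -0.75 across the 10387 genes. In the other libraries it was -0.42, 0.31 and 0.67 (scrambled 1, 2 and 3) and 0.53 and 0.43 (AEBP1 siRNA 2 and 3) across the members, and -0.18, 0.45 and 0.56 and 0.55 and 0.29 across the 10387 genes. Genes within a library share its depth and preparation and are not independent, so no p is given. The 10 shortest members, from PTTG1 at 868 bases to SPC24 at 2152 bases, had a median deviation of 0.14 in AEBP1 siRNA 1, with 9 of 10 above their mean. For the 10 longest, from BUB3 at 4296 bases to CENPF at 11587 bases, the median there was -0.37, with 1 of 10 above the mean. The shortest members were as high in scrambled 1, with a median of 0.14 and 9 of 10 above their mean. The longest were not low in scrambled 1, with a median of 0.054 and 8 of 10 above the mean. In scrambled 3 and AEBP1 siRNA 2 the shortest members were the low ones, with medians of -0.15 and -0.16, while the longest had medians of 0.022 and 0.053. Long members such as TOP2A, ANLN, INCENP and CENPE were low and short ones such as AURKB and PTTG1 high in AEBP1 siRNA 1, and the part of length in these differences was not tested.

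**Figure D5:**
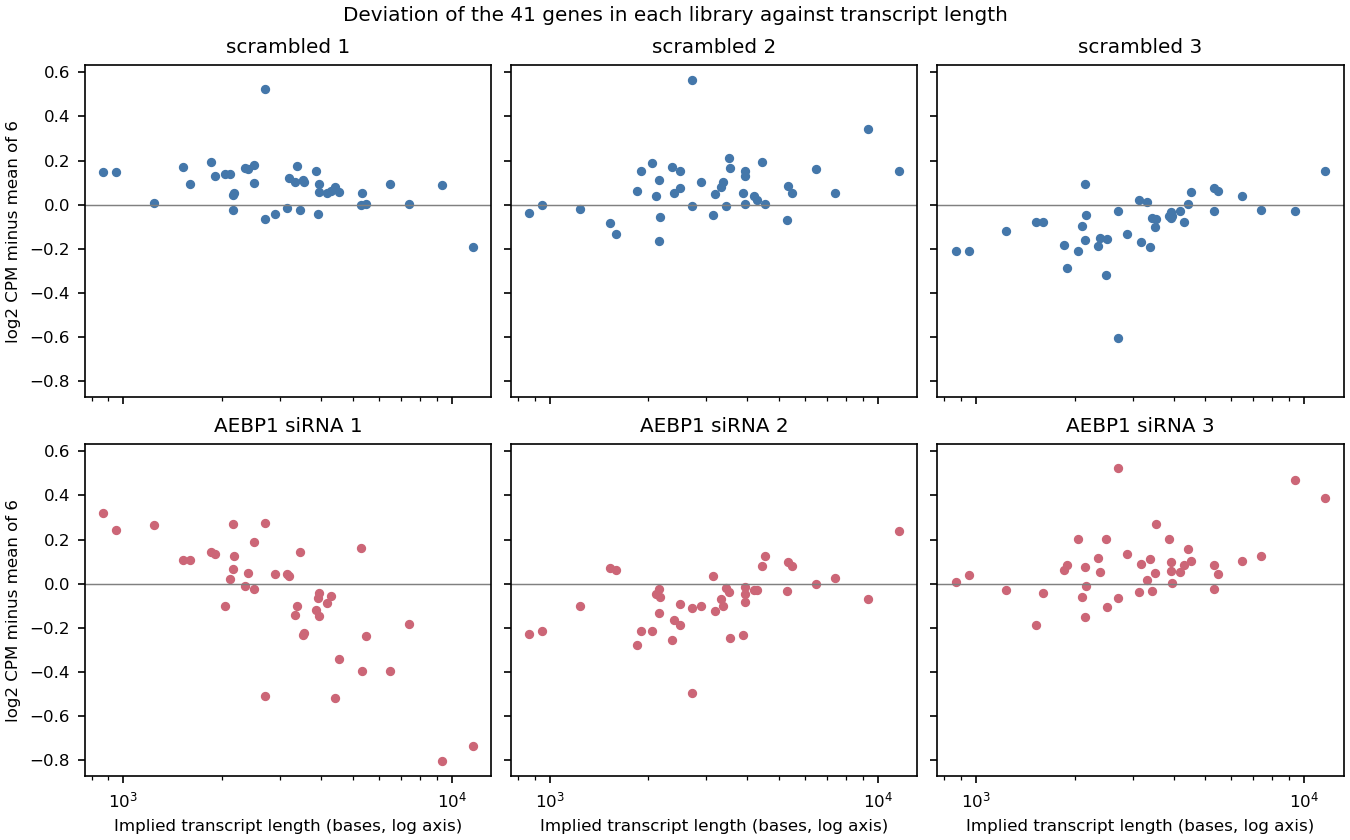
Deviation of each member from its own mean log2 CPM (vertical axis) against implied gene length in bases (log axis), with 1 panel per library and 41 points in each. In AEBP1 siRNA 1 the points fall from short to long genes (Spearman's rho -0.74), and in scrambled 3 they rise (rho 0.67).

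Because replicate 3 of both groups went against its label in AEBP1, the comparison was also run on replicates 1 and 2 alone. There 31 of 41 members had a lower estimate in the AEBP1 siRNA libraries, with a median of -0.12, against 50.9% of all genes and a median of -0.0047. No member was called by edgeR (background 0.00614%), and 3 members had an unadjusted p under 0.05, where 4.70% of all genes did. These were CDCA8, KIF20A and AURKA, at log2 fold changes of -1.05, -0.37 and -0.32. CDCA8 had an adjusted p of 0.254 in that edgeR fit, and AEBP1 one of 0.378 at a fold change of -0.83. When AEBP1 siRNA 1 was left out as well, which leaves AEBP1 siRNA 2 as the lone library against scrambled 1 and 2, the lone library was assumed to vary like the others. Of the members 32 then had a lower estimate, with a median of -0.13, where 51.1% of all genes did. CDCA8 was lower in AEBP1 siRNA 2, with a log2 difference of -1.04, and AEBP1 was at -0.88. CCNA2 had a fold change of 0.064 in that comparison. These libraries were chosen with their values known, and replicate 3 was left out for its AEBP1 values. The differences of AEBP1 in both comparisons were therefore set by that choice. CDCA8 had the same high and low libraries as AEBP1, so its differences were not independent of the choice. The members as a set were low in scrambled 3 and high in AEBP1 siRNA 3, with 9 and 30 of 41 above their mean. Leaving out these 2 libraries therefore moves the member estimates downward. The member counts and medians, and the values of KIF20A and AURKA, were not independent of the choice either. A comparison with 1 library on a side has no replicate check of its own.

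The other genes of the pathway were examined as 8 lists. None of their members was called or had an unadjusted p under 0.05 between the labelled groups. Among 19 regulators of G2 and M transcription, such as MuvB subunits, 10 estimates were below 0 with a median of -0.013. LIN9, a MuvB subunit, had the smallest p of that list, with 39.0, 35.5 and 36.0 CPM in the scrambled and 30.4, 34.4 and 33.1 CPM in the AEBP1 siRNA libraries and a fold change of -0.17 (SE 0.10). These groups did not overlap, as was so for 5.93% of all genes. Among 17 entry kinases and CDK regulators 10 were below 0, with a median of -0.021. ENSA, an inhibitor of the phosphatase that opposes CDK1, stood at 94.6, 95.6 and 115 CPM against 133, 122 and 94.9 CPM. It was thus high in the libraries in which CDCA8 was low, and its fold change was 0.20 (SE 0.14). Of the 17 subunits and partners of the anaphase-promoting complex 6 were below 0, with a median of 0.035, which was -0.057 without scrambled 3, -0.029 without AEBP1 siRNA 1, -0.00043 without scrambled 2, and 0.086 and 0.073 without scrambled 1 or AEBP1 siRNA 2. Of 16 cohesin genes 14 were below 0 with a median of -0.10, and of 8 condensin genes 7 with a median of -0.061. Without AEBP1 siRNA 1 these medians were 0.0015 and -0.010. WAPL, which releases cohesin, stood at 144, 153 and 149 CPM against 103, 147 and 145 CPM, and the condensin subunit NCAPD3 at 173, 191 and 176 CPM against 135, 165 and 179 CPM. In both, AEBP1 siRNA 1 was the low library, as it was for TOP2A and ANLN.

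Among 32 other centromere and kinetochore genes 14 estimates were below 0, with a median of 0.028, and among 32 other spindle and cytokinesis genes 22 were, with a median of -0.047. Without AEBP1 siRNA 1 these medians were -0.012 and -0.0027. MAD1L1, the checkpoint partner of MAD2L1, was highest in AEBP1 siRNA 1 at 48.8 CPM and lay between 33.6 and 38.1 CPM elsewhere. ARHGAP11A, a regulator of RHOA, was lowest in that library at 104 CPM and lay between 140 and 157 CPM elsewhere. For 38 genes of DNA replication and S phase, 12 estimates were below 0 and the median was 0.033, which was -0.0045 without AEBP1 siRNA 1, 0.020 without scrambled 2 and 0.069 without AEBP1 siRNA 3. Their median deviation was 0.0023, -0.036 and -0.021 in the scrambled and 0.089, -0.0060 and -0.051 in the AEBP1 siRNA libraries. Scrambled 2 and AEBP1 siRNA 3 were thus the lowest libraries for the S phase genes and among the 3 highest for the G2 and mitosis genes. POLA1, the catalytic subunit of the polymerase that starts each DNA strand, had the smallest p of the S phase list. It stood at 85.4, 81.6 and 76.1 CPM against 57.3, 74.5 and 74.7 CPM, with a fold change of -0.23 (SE 0.12). Its groups did not overlap, as was so for 5.93% of all genes.

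Some of these counts may include reads of a neighbour. In GENCODE release 29, exons of 12 members overlap exons of another gene. On the opposite strand, CCNA2 overlaps EXOSC9, KIF20A overlaps CDC23, PLK1 overlaps ERN2, ANLN overlaps KIAA0895 and CDC25C overlaps FAM53C. On the same strand, BUB1B overlaps the read-through gene BUB1B-PAK6, and NUSAP1 and PRC1 each overlap another protein-coding gene. The sources used here do not give a strand setting for the counting, so reads of partners on the opposite strand cannot be told apart. For partners on the same strand, a strand setting would not separate the reads either.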

How the data were processed

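The authors deposited 1 table with raw counts and FPKM per gene for 6 libraries, per the file headers. Per the submitters' processing notes, reads were placed on hg19. The sources used here do not give the aligner, counting program, annotation, strand setting or filters. Libraries were made from 1 μg of RNA with an mRNA kit, per the labels' protocols. Of 24789 rows with values, 19974 carried an Ensembl ID and 4815 were loci assembled by the authors. A further 17 lines without values were left out. Groups came from the labels.

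The deposited counts were filtered with filterByExpr, scaled by trimmed mean of M values (TMM) and tested with edgeR 4.0.16 (quasi-likelihood, group as the only term) in R 4.3.3, with Benjamini-Hochberg adjustment over 16250 genes and calls at an adjusted p under 0.05. CPM uses TMM-scaled totals. Deviations use log2 CPM with a prior count of 2. The SE is the log2 fold change over the square root of F. Alternatives were a replicate block, left-out libraries, other scalings and filters, DESeq2 1.42.0, and limma 3.58.1 as voom and on log2 of the deposited FPKM plus 1 or 0.1. The fit was tested on simulated counts. The counts of each pair of libraries differed beyond sampling noise (chi-square per degree of freedom at least 8.02).

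The members and lists were chosen with earlier results of these data known. Described in full were, per role, the member with the highest FPKM and the one with the largest fold change, and the 3 smallest p-values (16 members). For each of the 8 other pathway lists it was the gene with the smallest p. For the marker lists it was the tested gene with the highest mean CPM, given here only for COL1A1 and KRT18. KIF20A, PLK1 and CCNA2 were added after their values were seen, and the remaining members are given by their range. Sequences are from RefSeq on GRCh38.p14, with starts that need not be those the authors' hg19 annotation used.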

Additional observations from a re-analysis of the deposited data

How the results depend on the processing

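No member was called in the 17 other settings with more than 1 library per group, nor at an adjusted p under 0.1. Over all 18 other settings, 638 member estimates kept their direction and side of the threshold, and 99 changed sign. At least 1 setting changed the sign of 28 members and none that of 13. The cause of these changes was not tested. Without 1 library at a time, 0 to 2 genes and 0 members were called, 19 to 32 members had a lower estimate, the member median ran from -0.080 to 0.023, AEBP1 from -0.57 to -0.066 and CDCA8 from -0.76 to -0.14. Every member had 403 or more counts per library. How far counting and how far the spread between libraries limited the precision was not tested.

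The replicate block gave 2 called genes against 1 without it and called no member. Same-numbered libraries had deviations from their group means that correlated at 0.0961, -0.00776 and -0.102. With 3 libraries per group, these values cannot settle whether the numbers pair the libraries. With the block KIF2C (4.81e-05) and CDC20 (0.0026) changed sign. With replicates 1 and 2 alone the member median was -0.12, and CDC25C (-0.11), SPC25 (0.042), KIFC1 (-0.060), TPX2 (-0.058) and UBE2C (-0.043) changed sign. With scrambled 1 and 2 against AEBP1 siRNA 2, 249 genes and 1 member (CDCA8, -1.04) were called, the member median was -0.13, and AEBP1 at -0.88 passed the threshold. That fit tested 17050 genes, among them all 41 members. Its AEBP1 siRNA side was a lone library without a replicate, and its libraries were picked with their AEBP1 values known. CDCA8 had the same high and low libraries as AEBP1, so no conclusion is drawn from these calls. In that comparison CDC25B (-0.0052), CDC25C (-0.21), AURKB (-0.095), BIRC5 (-0.073), CENPF (0.25), NUF2 (-0.057), SPC25 (0.026), KIF11 (0.054), KIFC1 (-0.13), TPX2 (-0.044), ANLN (0.030), ECT2 (0.098), UBE2C (-0.29) and PTTG1 (-0.28) changed sign.

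Without a filter on low counts 3 genes were called, with DESeq2 6, with limma-voom 2 and with limma on log2(FPKM + 0.1) 3. TPX2 changed sign with DESeq2's size factors (-0.00059), a mean of at least 5 CPM (-0.0011), annotated genes only (-0.0015, CDC25C -0.00034) and DESeq2 (-0.00076). With voom KIF2C (0.00018) and CDC20 (0.0028) did. With upper quartile scaling, which moved the median of all genes from -0.0023 to 0.014, PLK1 (0.0031), BUB3 (0.015), CENPF (0.0064), SPC25 (0.014), KIF2C (0.015), NUSAP1 (0.012) and CDC20 (0.015) did. With log2(FPKM + 1) PLK1 (0.0064), BUB3 (0.034), SPC25 (0.0063), KIF2C (0.020), NUSAP1 (0.026) and CDC20 (0.011) did, and with log2(FPKM + 0.1) the same genes did at 0.0070, 0.035, 0.0064, 0.020, 0.026 and 0.011.

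Ranges over the left-out libraries for members that changed sign were -0.14 to 0.071 for CCNB2, -0.16 to 0.074 for PLK1, -0.21 to 0.0074 for AURKA, -0.022 to 0.17 for AURKB, -0.053 to 0.15 for BIRC5, -0.28 to 0.026 for INCENP, -0.045 to 0.029 for BUB3, -0.073 to 0.066 for CDC25C, and -0.53 to 0.082 for CENPE. They were -0.21 to 0.27 for CENPF, -0.13 to 0.029 for NDC80, -0.018 to 0.076 for NUF2, -0.056 to 0.16 for SPC24, -0.059 to 0.085 for SPC25, -0.13 to 0.023 for KIF11, -0.083 to 0.059 for KIF2C, -0.0079 to 0.12 for KIFC1 and -0.029 to 0.029 for TPX2. They were -0.11 to 0.045 for NUSAP1, -0.16 to 0.012 for HMMR, -0.096 to 0.023 for KIF23, -0.21 to 0.019 for ANLN, -0.14 to 0.076 for ECT2, -0.13 to 0.099 for CDC20, -0.070 to 0.16 for UBE2C, -0.080 to 0.20 for PTTG1 and -0.086 to 0.067 for ESPL1. For the members that kept their sign, besides CDCA8, they were -0.19 to -0.085 for BUB1, -0.080 to -0.0069 for BUB1B, 0.0096 to 0.050 for CCNA2, -0.21 to -0.0042 for CCNB1, 0.0037 to 0.093 for CDC25B, -0.12 to -0.0029 for CDK1, 0.034 to 0.15 for CENPA, -0.17 to -0.093 for DLGAP5, -0.31 to -0.027 for KIF20A, 0.0039 to 0.10 for MAD2L1, -0.23 to -0.0036 for PRC1, -0.29 to -0.048 for TOP2A and -0.23 to -0.074 for TTK. The medians of the 19 regulators and of the 17 entry kinases and CDK regulators ran from -0.046 to 0.0046 and from -0.050 to -0.0066.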

Other observations

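The 2 levels of CDCA8 were compared with those of its neighbours on chromosome 1 in RefSeq's gene order, chosen after the values of CDCA8 were seen. MANEAL, the nearest tested gene after CDCA8, stood at 35.5, 34.6 and 20.4 CPM in the scrambled and 22.4, 18.7 and 35.4 CPM in the AEBP1 siRNA libraries (log2 fold change -0.24, SE 0.28). Its high and low libraries were those of CDCA8, and also those of AEBP1. How many of all genes had the same high and low libraries was not counted. Whether CDCA8 and MANEAL share a cause was not tested. YRDC, farther on that side, ranged from 35.1 to 45.8 CPM, and on the other side C1orf109 ranged from 55.8 to 64.5 CPM and GNL2 from 87.4 to 113 CPM. These did not show the 2 levels.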
